A study of Mus musculus with 6 samples.

Results

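The collagen chain genes were taken by symbol, as every gene of the deposited count table whose name is Col, a type number, the letter a and a chain number, with Col17a1 left out. This rule gave 43 of the 23420 gene symbols. It used no measured value. The genes were compared between mouse embryonic endothelial eEnd2 cells carrying human Integrin-β1A with GFP in its extracellular part, either as wildtype (β1-WT-GFP) or with glutamine in place of Lys794, which mimics a constitutive acetylation (β1-K794Q-GFP). Both chimeras came from a pcDNA3 plasmid with a small fragment of the human β-actin promoter, were introduced by nucleofection into cells with no stated loss of their own mouse Integrin-β1, and were sorted by FACS as pooled GFP-positive cells, not as clones. Total RNA of 3 confluent cultures (A, B and C) of each kind was sequenced. The labels describe sorted GFPlow and GFPhigh populations, and which of them a culture came from is not given in the sources used here. The labels speak of different cultures of the sorted cells, so the p-values measure the spread between cultures of the same kind of cells. Whether the cultures of a kind came from the same sorted population is not known here.

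Collagens are matrix proteins built from chains that wind around each other in a triple helix, and the chain genes are grouped by the assemblies they make. Type IV chains form the network of the basement membrane on which endothelial cells sit, fibrillar chains (types I, II, III, V, XI and others) form banded fibrils of the interstitial matrix, and FACIT chains attach to the surface of fibrils. The multiplexins type XV and type XVIII reside in or beside basement membranes, and cells sense collagen through integrins such as α1β1 and α2β1 and through the discoidin domain receptors Ddr1 and Ddr2.

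A single chain gene of the 18 that could be tested passed the thresholds for a difference. Col5a3, the α3 chain of the fibrillar collagen type V, was 6.56-fold lower in β1-K794Q-GFP than in β1-WT-GFP cells. Col4a5, the α5 chain of type IV, was lower in every β1-K794Q-GFP culture by a smaller margin. The abundant basement membrane chains Col4a1, Col4a2 and Col18a1 differed more among cultures of a group than between the groups. The same held by a small margin for Col5a3, with a 6.70-fold range in β1-K794Q-GFP cells, and for every other tested chain gene but Col4a5. Of the chains most used as markers of fibrous matrix, Col1a1, Col1a2, Col2a1 and Col3a1 were at or close to 0 in most cultures.

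The bases before the transcription start are shown for Col5a3 and Col5a1, type V chains whose levels diverged, and for the divergent type IV pair on the X chromosome, of which Col4a5 was read at high level and Col4a6 hardly at all. The sequences are from RefSeq on GRCm38.p6, 5′ to 3′ on the gene's strand. Capitals mark the GC box GGGCGG and the CCAAT box CCAAT on either strand. The TATA box TATAAA was also searched and does not occur in these 4 stretches. Col5a3 is shown over chr9:20815068-20815317 (minus strand), Col5a1 over chr2:27886175-27886424 (plus strand), Col4a5 over chrX:141475169-141475384 (plus strand, with the last 34 bases before its start left out because they lie in an annotated exon) and Col4a6 over chrX:141474077-141474326 (minus strand).
Col5a3: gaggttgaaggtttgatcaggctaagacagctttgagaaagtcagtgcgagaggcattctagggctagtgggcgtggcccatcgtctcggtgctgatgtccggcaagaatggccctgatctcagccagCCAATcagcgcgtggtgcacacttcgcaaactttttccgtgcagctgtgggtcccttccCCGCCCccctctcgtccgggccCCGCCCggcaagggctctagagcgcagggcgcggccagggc
Col5a1: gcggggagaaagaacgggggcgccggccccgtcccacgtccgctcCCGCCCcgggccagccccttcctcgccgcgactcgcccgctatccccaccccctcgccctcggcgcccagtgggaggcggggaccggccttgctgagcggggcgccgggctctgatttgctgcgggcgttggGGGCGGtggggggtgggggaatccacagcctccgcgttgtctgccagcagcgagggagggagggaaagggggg
Col4a5: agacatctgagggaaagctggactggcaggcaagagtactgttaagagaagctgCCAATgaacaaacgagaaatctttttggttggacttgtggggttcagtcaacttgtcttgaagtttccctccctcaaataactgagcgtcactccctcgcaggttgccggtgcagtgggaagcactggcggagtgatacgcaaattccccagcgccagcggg
Col4a6: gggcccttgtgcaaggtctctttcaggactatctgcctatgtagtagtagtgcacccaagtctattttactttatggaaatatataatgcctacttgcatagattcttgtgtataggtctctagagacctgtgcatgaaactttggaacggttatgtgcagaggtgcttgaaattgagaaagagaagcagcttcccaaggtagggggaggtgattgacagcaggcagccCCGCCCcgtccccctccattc
The stretch of Col5a3 holds 2 GC boxes and 1 CCAAT box, and that of Col5a1 holds 2 GC boxes and no CCAAT box. The shown stretch of Col4a5 holds 1 CCAAT box, and its window holds 1 GC box as well, in the 34 bases left out. That of Col4a6 holds 1 GC box. The table had promoters for 34 of the 43 genes in 37 windows of 250 bases, here counted whole, of which 22 held a GC box, 12 a CCAAT box and 4 a TATA box. Over all 32851 promoters of the same length, 32.7% held a GC box, 33.8% a CCAAT box and 12.4% a TATA box. A match describes letters in these windows and is not a measured binding site.

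The totals lay between 9589826 and 15287191 counts per culture, and a gene counted 0 times may still lie anywhere up to 3 counts, which is 0.209 to 0.300 CPM depending on the culture (CPM are counts scaled to the library total and edgeR's TMM factor). These limits cover counting error only. Wherever 3 values are given for a kind of cells, they stand in the order of cultures A, B and C. Not all cultures of a group were equally alike: among β1-WT-GFP cultures, A and B had 148 genes 2-fold or more apart and A and C had 2883, and among β1-K794Q-GFP cultures A and B had 2126 and A and C had 1021. All 12 endothelial markers passed the filter on low counts, with Pecam1 between 1779 and 2818 CPM and Cdh5 (VE-cadherin) between 1294 and 3994 CPM, but not all were high in every culture. Cldn5 had 17.5, 0 and 24.2 CPM in β1-K794Q-GFP against 267, 252 and 4.74 CPM in β1-WT-GFP cells, and Vwf had 0.262 to 2.41 CPM over the 6 cultures. Of the markers of other cells, 4 of 6 epithelial markers were at 0 in every culture and the 6 summed to at most 0.592 CPM. Only Cd68 of 5 leukocyte markers was tested, with a sum of the list between 31.1 and 103 CPM. The mesenchymal markers, given below, were not all low, with S100a4 between 215 and 816 CPM. In RNA of whole cultures, fewer cells of a type and less RNA per cell cannot be told apart.

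Of the 43 genes, 18 passed the filter on low counts and 25 did not. Among those 25, 11 had 0 counts in all 6 cultures, and 21, these included, had at most 3 counts in any culture. The filter left 5 of 11 fibrillar chains, 3 of 6 type IV chains, 1 of 6 type VI chains, 3 of 9 FACIT chains, 2 of 3 transmembrane collagens, both multiplexins, Col7a1 of the anchoring fibrils and Col8a1 of the short-chain network. The type VI chains Col6a2, Col6a4, Col6a5 and Col6a6, the short-chain genes Col8a2 and Col10a1, the FACIT chains Col9a1 and Col9a2, and Col25a1, Col26a1 and Col28a1 were the 11 at 0. Only Col1a1, Col1a2, Col3a1 and Col19a1 went above 3 counts in any culture without passing the filter.

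Levels were compared between genes per kb of exon. Summed over the group, the type IV chains made up between 57.7% and 91.5% of the collagen chain level of a culture. Col4a1 had a mean of 508 ± 357 CPM per kb in β1-K794Q-GFP and 436 ± 172 CPM per kb in β1-WT-GFP cells (SD, n = 3), and Col4a2 had 409 ± 361 and 302 ± 114 CPM per kb. Col4a1 was above Col4a2, and Col4a2 above Col18a1, in each of the 6 cultures. Then came Col23a1, Col8a1 and Col4a5 by their mean over all 6 cultures, and the order among Col18a1 and these 3 changed from culture to culture. Col5a2 averaged 19.2 CPM per kb, each of Col5a1, Col13a1, Col5a3 and Col20a1 averaged between 2.23 and 5.50 CPM per kb, and the other 7 tested chains stayed under 1 CPM per kb on average.

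**Figure D1:**
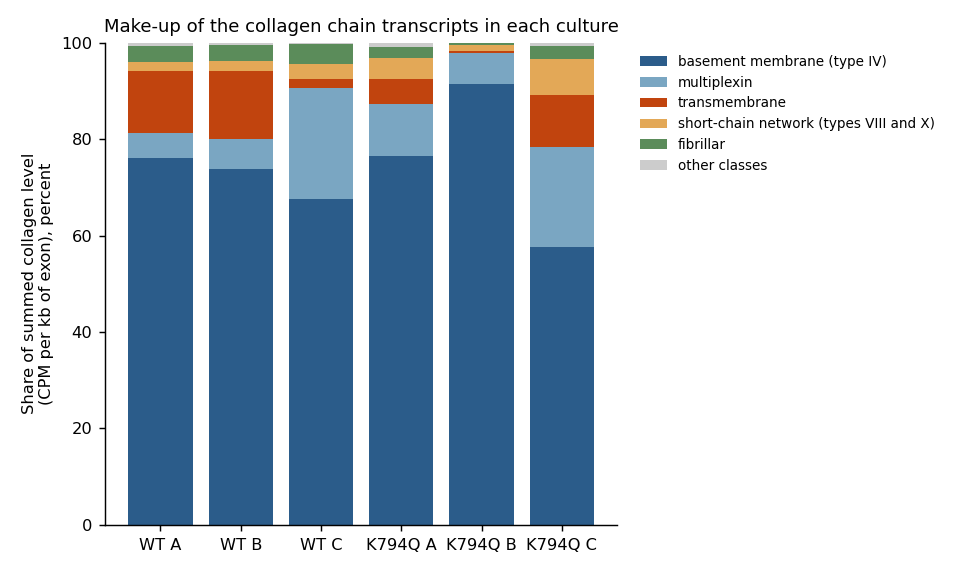
Stacked bars give the share, in percent, of each structural class in the summed level of the collagen chain genes (CPM per kb of exon) in each of the 6 cultures. Type IV chains made the largest share in every culture, from 57.7% in β1-K794Q-GFP culture C to 91.5% in culture B, and the multiplexin share was 23.1% in β1-WT-GFP culture C against 5.30% in culture A.

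The make-up of the remainder changed from culture to culture. Multiplexins, nearly all of it Col18a1, held 10.8%, 6.27% and 20.6% in β1-K794Q-GFP against 5.30%, 6.24% and 23.1% in β1-WT-GFP cells. Transmembrane collagens held 5.33%, 0.603% and 10.9% in β1-K794Q-GFP and 12.9%, 14.0% and 1.76% in β1-WT-GFP cultures. Col23a1 made most of this in 5 cultures, but 0.0943% of the 0.603% in β1-K794Q-GFP culture B, where Col13a1 made the rest. So the ranges of the groups overlapped in both classes, and β1-WT-GFP culture C stood away from A and B in each. All collagen chain genes together took 0.410% of the library in β1-K794Q-GFP culture A, 1.23% in culture B, and a share between these in the other 4 cultures.

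The comparison asks whether the acetyl-mimetic exchange in Integrin-β1, a chain of the main collagen-binding integrins, went with other levels of collagen transcripts. All tested genes of the table were fitted together with edgeR's quasi-likelihood F-test, two-sided. A gene was called different when its fold change reached 2 and its unadjusted p did not exceed 0.05. By that measure 1 of 18 tested chain genes passed, against 5.19% of all 11608 tested genes, and it was lower, against 1.71% of all tested genes that were lower. By the unadjusted p alone there were 2 chain genes, against 10.2% of all tested genes, and at a Benjamini-Hochberg adjusted p of at most 0.05 there were 0, against 0.181% of all tested genes. With DESeq2 and with edgeR's likelihood ratio test 1 chain gene, Col5a3, reached that adjusted p. There 477 (DESeq2) and 318 (likelihood ratio test) of all 11608 tested genes reached it. The 3 cultures of a group lay on one side of the other 3 for 2 of 18 chain genes, Col5a3 and Col4a5, against 16.6% of all tested genes. The lower call is 1 gene, too few to show a departure from the table, and the other shares stand near those of the table as a whole.

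The median log2 fold change of the 18 chain genes (β1-K794Q-GFP over β1-WT-GFP) was -0.13, against -0.02 over all tested genes, with 7 chain genes higher and 11 lower, where 48.4% of all tested genes were higher. The chain genes varied widely inside each group. The median ratio of the highest to the lowest culture was 2.83 on the log2 scale in β1-K794Q-GFP and 1.49 in β1-WT-GFP cells, against 0.62 and 0.60 over all tested genes. In at least 1 group that ratio was larger than the fold between the groups for 17 of 18 chain genes and for 90.4% of all tested genes. The called gene Col5a3 was among the 17, and the exception was Col4a5. Of the β1-WT-GFP cultures, A and B were within 2-fold of each other for 15 of 18 chain genes, and the largest fold among the 18 was 2.545. Over all 11608 tested genes, 148 were 2-fold or more apart between these cultures, counted on log values with a small added count. The chain genes were thus less often alike between A and B than the table as a whole. β1-K794Q-GFP culture B was the lowest of all 6 cultures for 6 of the 18, where it was lowest for 22.3% of all tested genes, and β1-K794Q-GFP culture A was highest for 0 of the 18, where it was highest for 10.5% of all tested genes.

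**Figure D2:**
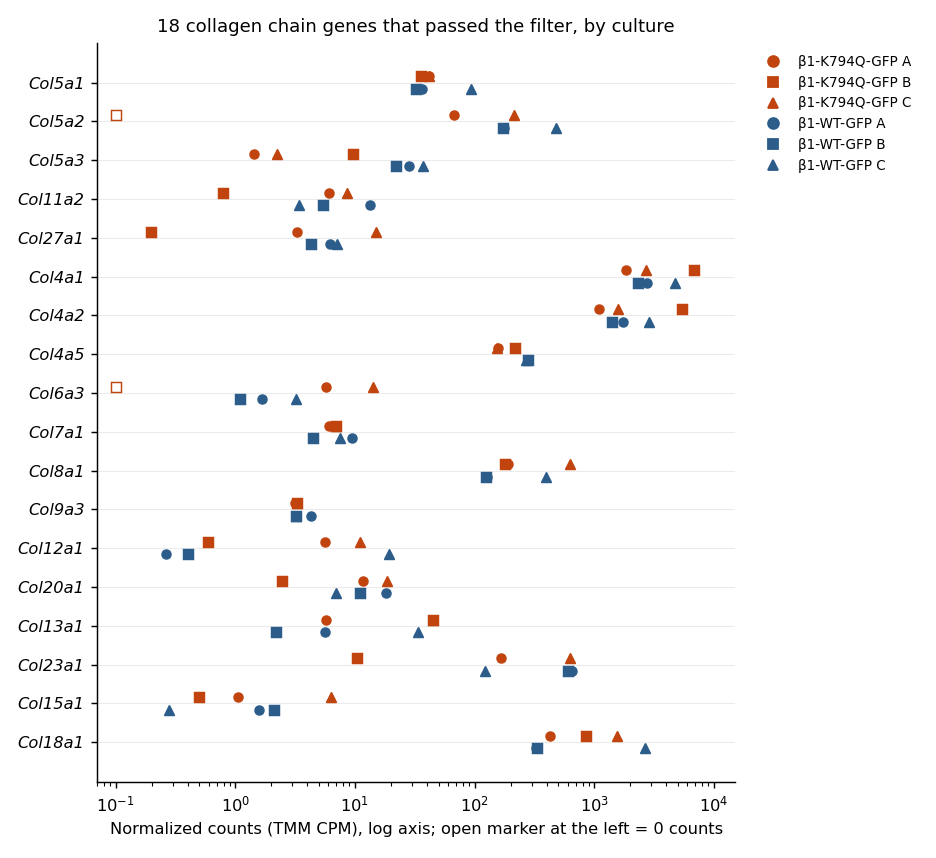
Each row is one of the 18 tested chain genes, grouped by structural class, and the horizontal log axis gives normalized counts (CPM), with circles, squares and triangles for cultures A, B and C and open markers for 0 counts. Only in the rows of Col5a3 and Col4a5 do the 3 β1-K794Q-GFP cultures lie apart from the 3 β1-WT-GFP cultures.

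Type V collagen is a minor fibrillar collagen that joins fibrils of type I and helps to set their diameter, and its genes Col5a1, Col5a2 and Col5a3 encode the α1, α2 and α3 chains. Col5a3 (chr9:20770050-20815067, minus strand) had 1.44, 9.67 and 2.24 CPM in β1-K794Q-GFP against 28.5, 22.0 and 37.0 CPM in β1-WT-GFP cells. Every β1-K794Q-GFP culture was below every β1-WT-GFP culture, and culture B was the highest of the first group. The means were 4.45 ± 4.54 and 29.2 ± 7.51 CPM (SD, n = 3), and the log2 fold change was -2.71 ± 0.74 (standard error, edgeR quasi-likelihood F-test, unadjusted p = 0.00943, adjusted p = 0.262). Whichever culture was left out, the gene stayed past both thresholds, with log2 fold changes between -3.97 (without β1-K794Q-GFP culture B, edgeR adjusted p under the 0.05 threshold) and -2.30. The value without β1-WT-GFP culture C was -2.50. Its 64 tested neighbours within 5 Mb on either side had a median log2 fold change of -0.08.

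Col5a1 (chr2:27886425-28039514, plus strand), the chain present in nearly all type V molecules, overlapped between the groups. It had 41.4, 35.9 and 41.4 CPM in β1-K794Q-GFP against 36.6, 32.2 and 92.6 CPM in β1-WT-GFP cells (log2 fold change -0.44 ± 0.42, edgeR adjusted p = 0.821). Only β1-WT-GFP culture C lay clearly above the rest, and without it the value was 0.22. Per kb of exon, the ratio of Col5a3 to Col5a1 was 0.0435, 0.336 and 0.0673 in β1-K794Q-GFP against 0.972, 0.852 and 0.498 in β1-WT-GFP cells, so that the groups did not overlap in this ratio either, in which the same Col5a3 counts enter.

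Col5a2 (chr1:45374321-45503282, minus strand) had 67.1, 0 and 213 CPM in β1-K794Q-GFP against 175, 174 and 477 CPM in β1-WT-GFP cells. Its 0 counts in β1-K794Q-GFP culture B, which allow up to 0.296 CPM, set that culture apart from A and C of the same cells. With so wide a range the log2 fold change was -1.56 ± 1.64 (edgeR adjusted p = 0.844), and the groups overlapped through β1-K794Q-GFP culture C.

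Markers of mesenchymal cells, which are the usual source of fibrillar collagens, were also measured. Of 12 such markers 4 were tested and 4 (Thy1, Prrx2, Twist1 and Twist2) were at 0 in every culture. The 12 summed to 218 to 370 CPM in β1-K794Q-GFP and 428 to 895 CPM in β1-WT-GFP cultures, with S100a4 and Prrx1 the largest parts. S100a4 by itself overlapped between the groups, with 275, 370 and 215 CPM in β1-K794Q-GFP against 264, 232 and 816 CPM in β1-WT-GFP cells. The tested markers Pdgfra and Fap overlapped as well. The transcription factor Prrx1 was the marker past both thresholds, with at most 0.0987 CPM in β1-K794Q-GFP cultures and 183, 194 and 56.5 CPM in β1-WT-GFP cells (edgeR adjusted p = 0.0198). Prrx1 was thus lower in β1-K794Q-GFP cells, as Col5a3 was. Among the β1-WT-GFP cultures Prrx1 was lowest in culture C, where Col5a3 was highest. The part of these markers in the result was not tested.

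**Figure D3:**
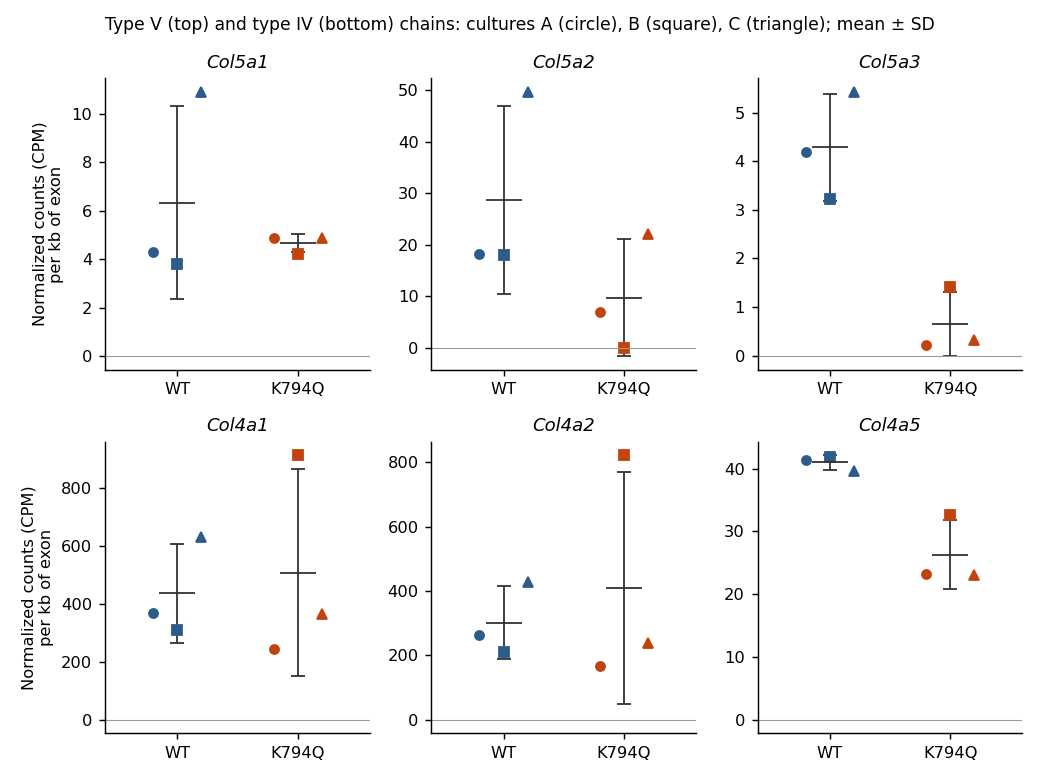
Panels give the level of the type V chains Col5a1, Col5a2 and Col5a3 and the tested type IV chains Col4a1, Col4a2 and Col4a5 in CPM per kb of exon on linear axes, with cultures as points (A circle, B square, C triangle), the mean as a wide line and the SD as the error bar. Col5a3 lay between 0.212 and 1.42 CPM per kb in the β1-K794Q-GFP cultures and between 3.23 and 5.43 in the β1-WT-GFP cultures, while Col4a1 and Col4a2 were highest in β1-K794Q-GFP culture B.

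The other fibrillar chains were low. Col11a2, a chain of the cartilage-type fibril, had 6.07, 0.790 and 8.51 CPM in β1-K794Q-GFP against 13.5, 5.40 and 3.41 CPM in β1-WT-GFP cells (log2 fold change -0.53 ± 0.88). Col27a1, a fibrillar chain best known from cartilage, had 3.27, 0.197 and 15.0 CPM in β1-K794Q-GFP against 6.21, 4.30 and 7.03 CPM in β1-WT-GFP cells (log2 fold change 0.08 ± 1.14). In both genes β1-K794Q-GFP culture B was the lowest of the 6, and the groups overlapped. Col1a1, the major chain of type I collagen, was counted 3, 2 and 17 times in β1-K794Q-GFP against 1, 1 and 85 times in β1-WT-GFP cells. Col3a1 was counted 44 times in β1-WT-GFP culture C and at most 6 times in any other. Col1a2 instead was counted 32 times in β1-K794Q-GFP culture B and at most 1 time elsewhere, so that the genes of the type I heterotrimer peaked in different cultures. Of the 8 mesenchymal markers with any counts, 6 (Pdgfra, Pdgfrb, Tagln, Acta2, Cnn1 and S100a4) were also highest in β1-WT-GFP culture C, with for example 236 counts of Pdgfra and 33 of Pdgfrb against at most 24 and 4 in the other cultures. The other 2 were not: Prrx1 was counted 812 times there against 2097 and 1936 times in the other β1-WT-GFP cultures, and Fap 1 time, its lowest of the 6 cultures. The part of these markers in the collagen counts of that culture was not tested. Col2a1, Col11a1 and Col24a1 had between 0 and 3 counts.

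Type IV collagen chains are encoded in pairs that stand head to head, and the usual molecule of vessel basement membranes has α1 and α2 chains. Col4a1 (chr8:11198423-11312826, minus strand) and Col4a2 (chr8:11312805-11449287, plus strand) overlap by 22 bases at their starts in the annotation. Col4a1 had 1831, 6822 and 2721 CPM in β1-K794Q-GFP against 2741, 2315 and 4714 CPM in β1-WT-GFP cells. Col4a2 had 1096, 5447 and 1573 CPM and 1742, 1402 and 2842 CPM in the same order. For both, β1-K794Q-GFP culture B was the highest and culture A the lowest of the 6, so the groups overlapped fully.

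The log2 fold changes were 0.22 ± 0.59 for Col4a1 (edgeR adjusted p = 0.951) and 0.44 ± 0.67 for Col4a2 (edgeR adjusted p = 0.903), and without β1-K794Q-GFP culture B they turned to -0.52 and -0.58. Per kb of exon, the ratio of Col4a1 to Col4a2 was 1.48, 1.11 and 1.53 in β1-K794Q-GFP against 1.40, 1.46 and 1.47 in β1-WT-GFP cells. In β1-K794Q-GFP culture B the 26 tested neighbours within 5 Mb were also above the mean of β1-WT-GFP cells, by a median log2 ratio of 0.45, while the pair itself was above it by 1.07 and 1.45. The part of the neighbourhood in these values was not tested.

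Col4a5 (chrX:141475385-141689234, plus strand), a chain of the α3α4α5 and α5α5α6 networks that is known from Alport syndrome, had 156, 219 and 155 CPM in β1-K794Q-GFP against 278, 281 and 266 CPM in β1-WT-GFP cells. The latter range was the narrowest of the 18 tested chain genes in β1-WT-GFP cells. All β1-K794Q-GFP cultures were below all β1-WT-GFP cultures, and the level was 1.56-fold lower, under the 2-fold threshold (log2 fold change -0.64 ± 0.20, edgeR unadjusted p = 0.0182, adjusted p = 0.334). It stayed between -0.82 and -0.55 whichever culture was left out. Its 25 tested neighbours had a median log2 fold change of 0.00.

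The divergent partner of Col4a5, Col4a6 (chrX:141165403-141474076, minus strand), starts 1308 bases away in the annotation and had between 0 and 3 counts, where Col4a5 had at least 1622. Of the pair on chromosome 1, Col4a3 and Col4a4, whose annotated genes are 71 bases apart, neither went above 2 counts. So of the α3, α4, α5 and α6 chains only α5 was detected above a few counts at this depth, and the chains that join it in its known networks were not.

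The transmembrane collagens and multiplexins varied widely from culture to culture. Col18a1, whose C-terminal fragment is endostatin, had 429, 851 and 1561 CPM in β1-K794Q-GFP against 327, 332 and 2644 CPM in β1-WT-GFP cells. β1-WT-GFP culture C was thus above all others and its sister cultures below all others. Over the 6 cultures the log2 fold change was -0.22 ± 0.94 (edgeR adjusted p = 0.970), and 1.53, past both thresholds, with β1-WT-GFP culture C left out. The gene lies on chromosome 10 among 129 tested neighbours with a median log2 fold change of 0.54, with medians of 0.56, 0.53 and 0.44 in the β1-K794Q-GFP cultures against the β1-WT-GFP mean, and the part of that shift in the level of Col18a1 was not tested. Its annotated end overlaps Slc19a1 on the other strand, and whether counting used the strand is not given in the sources used here.

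Col13a1, a transmembrane collagen of cell-matrix contacts, had 5.78, 45.3 and 45.0 CPM in β1-K794Q-GFP against 5.60, 2.20 and 33.9 CPM in β1-WT-GFP cells. It was thus high in 3 of the 6 cultures, from both groups, and its 48 tested neighbours on chromosome 10 had a median log2 fold change of 0.35, whose part was not tested. The log2 fold change was 1.20 ± 1.14 (edgeR adjusted p = 0.819) and became 3.04, past both thresholds, without β1-WT-GFP culture C. Col23a1, also a membrane collagen, had 166, 10.5 and 622 CPM in β1-K794Q-GFP against 647, 609 and 122 CPM in β1-WT-GFP cells. The groups overlapped, and the log2 fold change was -0.79 ± 1.26 (edgeR adjusted p = 0.909), of the other sign than that of Col13a1. Both genes were high in β1-K794Q-GFP culture C. Neither sign is supported by a call. The range of Col23a1 inside the β1-K794Q-GFP group was 59.5-fold.

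Col15a1, the other multiplexin, was low, with 1.06, 0.494 and 6.28 CPM in β1-K794Q-GFP against 1.57, 2.10 and 0.279 CPM in β1-WT-GFP cells. The difference between the groups, 1.01 ± 1.10 as log2 fold change (edgeR adjusted p = 0.855), rested on β1-K794Q-GFP culture C and was -0.74 without it.

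Among FACIT chains, Col12a1, which decorates fibrils in tissues under tension, had 5.58, 0.592 and 10.9 CPM in β1-K794Q-GFP against 0.262, 0.400 and 19.1 CPM in β1-WT-GFP cells. Over all 6 cultures its log2 fold change was -0.21 ± 1.63 (edgeR adjusted p = 0.980), and it was 4.08, past both thresholds, without β1-WT-GFP culture C. A value above 0, 0.30, also came without β1-K794Q-GFP culture B, so its direction hung on single cultures. Col20a1 had 11.6, 2.47 and 18.7 CPM in β1-K794Q-GFP against 18.0, 11.0 and 6.89 CPM in β1-WT-GFP cells (log2 fold change -0.13 ± 0.72). Col9a3, a chain of the cartilage collagen type IX, was even across cultures, with 3.18 to 3.27 CPM in β1-K794Q-GFP and 3.20 to 4.29 CPM in β1-WT-GFP cultures (log2 fold change -0.14 ± 0.31). Of the FACIT chains under the filter, Col19a1 had 12 counts in β1-WT-GFP culture C and at most 1 elsewhere, and Col14a1, Col16a1 and Col22a1 had between 0 and 2.

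Col8a1, a short-chain collagen made by vessel cells, had 192, 180 and 621 CPM in β1-K794Q-GFP against 127, 123 and 393 CPM in β1-WT-GFP cells. Culture C was the highest of each group, with a ratio of highest to lowest culture of 3.46 and 3.19, and the groups overlapped through it (log2 fold change 0.63 ± 0.68, edgeR adjusted p = 0.852). Col7a1, the chain of anchoring fibrils under epithelia, had 6.07 to 7.01 CPM in β1-K794Q-GFP and 4.50 to 9.45 CPM in β1-WT-GFP cultures (log2 fold change -0.10 ± 0.34). Col6a3, of the beaded filaments of type VI collagen, had 5.68, 0 and 14.1 CPM in β1-K794Q-GFP against 1.66, 1.10 and 3.20 CPM in β1-WT-GFP cells (log2 fold change 1.72 ± 1.39, edgeR adjusted p = 0.781). Without β1-K794Q-GFP culture B, which had 0 counts, it was 2.29 and past both thresholds. Its partner chain Col6a1 had at most 2 counts and Col6a2 had 0, and the 54 tested neighbours of Col6a3 on chromosome 1 had a median log2 fold change of -0.56, opposite in sign to its own.

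**Figure D4:**
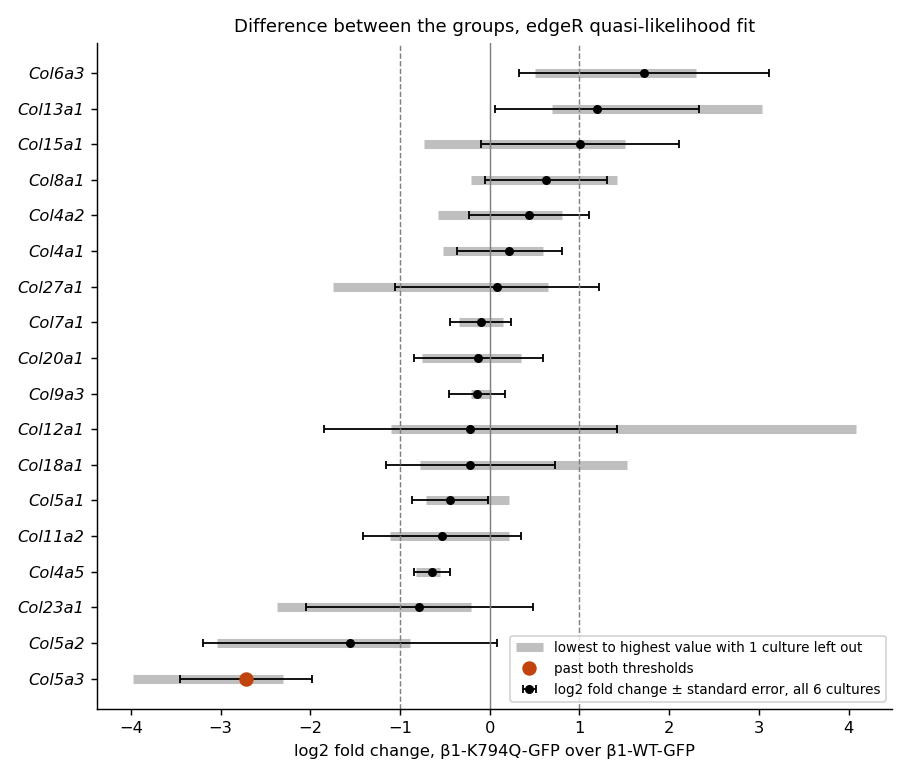
Points give the log2 fold change of β1-K794Q-GFP over β1-WT-GFP for the 18 tested chain genes with the standard error as bar, grey bands span the values obtained with any of the 6 cultures left out, and dashed lines mark a 2-fold change. Col5a3 alone passed both thresholds with all cultures, at -2.71, and the band of Col12a1 reached from -1.10 to 4.08.

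The genes that bind, process or accompany collagen were counted from lists chosen by function. Of 10 collagen receptors, all in the table, 7 were tested and 2 passed both thresholds, both higher, where 5.19% of all tested genes passed in either direction. These were the α chains of the collagen-binding integrins, Itga1 (log2 fold change 1.63 ± 0.67, edgeR adjusted p = 0.483) and Itga2 (1.62 ± 0.56, edgeR adjusted p = 0.376), and the calls were lost in 5 and in 4 of the 6 fits with a culture left out. The paper already reports both as increased in its RNA-seq of these cells, so the 2 calls are not separate support. Itga10 had a log2 fold change of 0.14 ± 0.60 (edgeR adjusted p = 0.970), and Itga11 had at most 3 counts. The discoidin domain receptors, tyrosine kinases that bind the triple helix, pointed in opposite directions without passing: Ddr1 had 6.45, 0.197 and 6.79 CPM in β1-K794Q-GFP against 0.700, 0.300 and 2.09 CPM in β1-WT-GFP cells (log2 fold change 2.08 ± 1.20, edgeR adjusted p = 0.664). Ddr2, the receptor for fibrillar collagen, had 52.7, 0.691 and 34.6 CPM in β1-K794Q-GFP against 206, 219 and 56.3 CPM in β1-WT-GFP cells (log2 fold change -2.45 ± 1.24, edgeR adjusted p = 0.604), with all β1-K794Q-GFP cultures below all β1-WT-GFP cultures.

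Of 28 genes for the processing and cross-linking of collagen, 22 were tested and 1 passed both thresholds, a share near the 5.19% of all tested genes. The gene was Loxl2, a lysyl oxidase that cross-links collagen and in particular type IV, with 28.8, 15.4 and 25.9 CPM in β1-K794Q-GFP against 1.75, 2.40 and 9.61 CPM in β1-WT-GFP cells. The groups did not overlap, and the log2 fold change was 2.33 ± 0.70 (edgeR adjusted p = 0.299), and the call held in all 6 fits with a culture left out. The median log2 fold change of the 22 was 0.24. Of 12 matrix genes that accompany collagen, 8 were tested and their median log2 fold change was -0.65. The list summed to 3930, 8460 and 4900 CPM in β1-K794Q-GFP against 4030, 3990 and 13700 CPM in β1-WT-GFP cells. These sums overlapped between the groups and were highest in β1-WT-GFP culture C, so the median is not read as a lower level in β1-K794Q-GFP cells. In edgeR's quasi-likelihood test 0 of these 8 passed both thresholds and 0 the unadjusted p alone, against 5.19% and 10.2% of all tested genes. DESeq2 put 0 of the 8 past both thresholds, against 695 of all 11608 tested genes. The likelihood ratio test called 1 of them, against 727 of 11608. That gene was the basement membrane protein nidogen-2 (Nid2), chosen here after its values were seen. Nid2 had 36.5, 540 and 47.5 CPM in β1-K794Q-GFP against 43.4, 47.0 and 38.9 CPM in β1-WT-GFP cells. With 8 genes, neither 0 calls nor 1 call is read as a result about the list.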

How the data were processed

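Total RNA of 3 cultures of β1-WT-GFP and 3 of β1-K794Q-GFP eEnd2 cells was sequenced. The authors aligned the reads to the mouse genome with STAR and deposited raw counts of reads per gene symbol; the submitters' processing notes name bcl2fastq 2.20.0, STAR 2.7.4a, HTSeq 0.9.1 and edgeR 3.38.4 with mm10, and the annotation and strand setting are not given in the sources used here. The table has 23420 genes and totals of 9589826 to 15287191 counts.

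All genes were fitted together in R 4.3.3 with edgeR 4.0.16 (filterByExpr, TMM, glmQLFit and glmQLFTest, two-sided), the test named by the study, which left 11608 genes with a common dispersion of 0.186. The standard error was taken as |log2 fold change| / √F. The fit was first tested on simulated counts. Every tested chain gene was named; of the other lists, the genes past both thresholds, the collagen-binding integrin α chains and the discoidin domain receptors were named. The chain genes and lists were chosen with earlier results of these data known. Positions and exon lengths came from GENCODE M21 (GRCm38), and neighbours were the tested genes within 5 Mb on either side. Promoters came from the RefSeq table on GRCm38.p6. Alternatives were no filter, at least 10 counts in every culture, RLE, DESeq2 1.42.0, edgeR's likelihood ratio test, a block for the letter of the culture, and each culture left out in turn. Other assays of the study were not analysed here.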

Additional observations from a re-analysis of the deposited data

How the results depend on the processing

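Leaving out a culture in turn gave 1 to 4 chain genes past both thresholds, 0 to 1 with an adjusted p of at most 0.05, 2 to 6 with groups that did not overlap, and 1 to 7 other collagen pathway genes past both thresholds, where all cultures gave 1, 0, 2 and 3. The highest of the first count came without β1-WT-GFP culture C (Col5a3, Col12a1, Col13a1 and Col18a1), where 992 of 11844 tested genes passed. Without β1-K794Q-GFP culture B there were 2 (Col5a3 and Col6a3). The 7 pathway genes came from that fit, where 942 of 11853 tested genes passed. Groups separate more easily when a culture is missing. The share of all tested genes without overlap was not counted for these fits, so the rise in that count is not read as a result about collagen genes. Col5a3 passed both thresholds under every alternative run. DESeq2 and the likelihood ratio test each gave 1 chain gene at the adjusted threshold, and the likelihood ratio test gave 5 other pathway genes past both thresholds. With all cultures, the other pathway genes tested were 7 receptors, 22 processing and cross-linking genes and 8 accompanying matrix genes. Their counts are not read as a result about these lists. Over all tested genes, the calls past both thresholds were 603, with 916 without the filter, 425 with at least 10 counts in every culture (12 chain genes left), 695 with DESeq2 and 501 to 992 with a culture left out, and the likelihood ratio test called 727. At the adjusted threshold there were 21 calls, with 477 in DESeq2, 318 in the likelihood ratio test and 4 with at least 10 counts in every culture. Without a culture they were 0 (β1-K794Q-GFP A, β1-K794Q-GFP C or β1-WT-GFP A), 1 (β1-WT-GFP B), 28 (β1-WT-GFP C) and 125 (β1-K794Q-GFP B). No filter, RLE, DESeq2 and the likelihood ratio test turned the sign of 0 of the 18 chain genes.

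Leaving out a culture turned the sign of 12 chain genes, none of which was called with all cultures. Their log2 fold changes ranged from -1.11 to 0.22 for Col11a2, -1.10 to 4.08 for Col12a1, -0.74 to 1.51 for Col15a1, -0.78 to 1.53 for Col18a1, -0.76 to 0.35 for Col20a1, -1.74 to 0.65 for Col27a1, -0.52 to 0.59 for Col4a1, -0.58 to 0.81 for Col4a2, -0.71 to 0.22 for Col5a1, -0.35 to 0.15 for Col7a1, -0.21 to 1.41 for Col8a1 and -0.21 to 0.0112 for Col9a3. The causes were not tested.

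The culture letters are shared by the groups without being said to mark a pairing. The correlation of same-lettered deviations was 0.0947, 0.0548 and 0.0952 for A, B and C, and that of other pairs lay between -0.152 and 0.0954. β1-K794Q-GFP cultures B and C correlated best with the β1-WT-GFP culture of their letter, and A did so with B (0.0954). All these values were small and no pairing is stated, so the main fit did not take the letters as pairs. The correlations do not settle whether they are. With the letter as a block, 571 genes passed both thresholds and 1 the adjusted threshold, and among chain genes Col12a1 turned to 1.09, Col18a1 to 0.33 and Col27a1 to -1.02. The block left 1 chain gene past both thresholds, Col5a3 (-3.18). Col8a1, highest in culture C of each group, stayed under the 2-fold threshold at 0.60. Its unadjusted p in edgeR's quasi-likelihood F-test was 0.033 with the block and 0.392 without it. A block for the letter takes up just such a shared high culture, so the fall in p is not read as a result about Col8a1. With the block, 0 chain genes reached the adjusted threshold.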
